A study of Mus musculus with 4 samples.

Results

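Dendritic cell maturation was followed here through 10 genes in scRNA seq data of brain tumors from 4 mice. The genes were Ccr7, Cd83, Fscn1, Cacnb3, Ramp3, Ifitm1, Socs2, Relb, Cd40 and Cd86, and all 10 were found by symbol among the 21861 genes of the filtered matrices. All 4 mice carried the genotype hGFAP-cre::TP53Fl/Fl::lsl-MYCN, in which Cre under the human GFAP promoter removes p53 and switches on human MYCN with a firefly luciferase reporter in neural precursors and their progeny, so no mouse without a tumor served as control. Mice 4 and 5 were 43 days old (P43) and mice 6 and 7 were 70 days old (P70), and each mouse gave 1 library of viable cells. The paper took cells from olfactory bulb/tumor tissue, and it places P43 at early tumor onset and P70 at a further developed stage. Age and tumor stage therefore cannot be told apart here. The genes were chosen by name with earlier results of these data in view, among them the levels of genes in the clusters of dendritic cells (DC) and at both ages, and which of these values selected each gene is not recorded. Levels by subset and differences by age of these 10 genes are therefore given as descriptions, and nothing is read from how many of them passed a limit.

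As background, immature conventional DC sample their surroundings, and signals from microbes, dying cells or interferon start a program called maturation. Maturing DC lower antigen uptake, show costimulatory molecules and gain the chemokine receptor CCR7, which guides them along CCL19 and CCL21 to lymphatic vessels and T cell zones. NF-kB factors, RelB among them, drive much of this program, and in tumors such migratory cells are the ones that carry antigen to lymph nodes or hold T cells in local niches.

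Over the 4 libraries, 13106786 to 40621958 UMIs (unique molecular identifiers, 1 per captured transcript) were deposited, and 1456 to 3469 cells per mouse were kept, 10975 in all. DC numbered 70, 74, 481 and 66 in mice 4, 5, 6 and 7, which is 2.11%, 5.08%, 17.6% and 1.90% of the kept cells, so mouse 6 held 481 of the 691 DC. Median depth of the DC was 1056, 9415, 5984 and 2572 UMIs. Libraries shared between 1 and 3 cell barcodes per pair, none of them of DC. The sum of Y-linked genes was 221 CPM (UMIs of a gene scaled to an equal total per cell set) in mouse 4, which is labelled female, and 0.53 CPM in mouse 5, which is labelled male. This goes against the labels of both P43 mice, and sex was not used.

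Promoter sequences are shown for Fscn1 and Ramp3, which held an NF-kB-like pattern, and for Ifitm1, an interferon-induced gene whose window held none. The windows span 250 to 21 bases before the RefSeq start (GRCm38.p6), all on the plus strand, at chr5:142960105-142960334 for Fscn1, chr11:6658283-6658512 for Ramp3 and chr7:140967826-140968055 for Ifitm1, and the capitals mark an NF-kB-like pattern, GGG and CC with 5 free bases between them, on either strand.
Fscn1: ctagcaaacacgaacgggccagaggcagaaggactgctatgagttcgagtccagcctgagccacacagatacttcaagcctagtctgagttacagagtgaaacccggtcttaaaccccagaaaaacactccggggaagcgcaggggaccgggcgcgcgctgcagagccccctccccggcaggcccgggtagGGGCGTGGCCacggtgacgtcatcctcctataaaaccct
Ramp3: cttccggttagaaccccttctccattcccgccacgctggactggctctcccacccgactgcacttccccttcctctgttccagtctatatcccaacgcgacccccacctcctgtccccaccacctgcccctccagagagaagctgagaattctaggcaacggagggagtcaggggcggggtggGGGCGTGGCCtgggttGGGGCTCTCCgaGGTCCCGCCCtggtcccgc
Ifitm1: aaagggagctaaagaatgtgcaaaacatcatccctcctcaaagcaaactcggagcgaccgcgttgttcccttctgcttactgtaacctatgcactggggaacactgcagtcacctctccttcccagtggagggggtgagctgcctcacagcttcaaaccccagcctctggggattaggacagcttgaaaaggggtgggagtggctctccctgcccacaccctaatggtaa
The Fscn1 window held 1 match, 59 bases before the start, and the Ramp3 window held 3, the farthest 67 bases before the start. This pattern is loose, and 42.7% of 32851 promoter windows of the same length held it. Cacnb3, the other matched gene, has 2 listed starts with 0 and 2 matches. None of these windows held the interferon response pattern (TTTC, 2 free bases and TTTC, in 2.72% of all windows), the GAS pattern of STAT factors (TTC, 3 free bases and GAA, 6.48%) or the AP-1 pattern (TGA, 1 free base and TCA, 6.34%) on either strand. The windows of Ifitm1 and Cacnb3 lie inside the gene spans given below, which begin at chr7:140967221 and chr15:98630840. Bases before those outer starts were not searched, so nothing is known here of patterns there. Promoters of Ccr7, Cd83, Socs2, Relb, Cd40 and Cd86 were not analysed here. A match describes letters in a window and says nothing of binding.

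The DC fell into 3 subsets, which were clustered with the 10 genes left out of the features. The Cd209a DC (33, 59, 264 and 48 cells in mice 4, 5, 6 and 7) carried markers of conventional DC type 2, and their cluster also held genes of conventional DC type 1 such as Xcr1, at 136, 143, 76.1 and 79.5 CPM. The migratory DC (33, 9, 159 and 14 cells) were named from 12 other markers such as the chemokine Ccl22 and the amino acid oxidase Il4i1, and the plasmacytoid DC (4, 6, 58 and 4 cells) from markers such as Siglech. Markers of other cells were low but not absent in the Cd209a DC. The 9 markers of T and NK cells summed to 0, 3.50, 37.5 and 15.9 CPM in mice 4, 5, 6 and 7, with 4 of them, Cd3g included, at 0 in every mouse. The 4 markers of B cells summed to 0, 1.75, 12.9 and 7.95 CPM, with Cd79a at 0 in every mouse. Both sums were higher in the P70 mice, and their part in the age differences was not tested. The 8 Myeloid markers summed to 116, 147, 149 and 183 CPM. In the same Cd209a DC the 12 migratory markers summed to 163, 262, 579 and 493 CPM. At least 2 of these 12 were found in 4, 22, 119 and 9 of the cells. Their sum was higher in both P70 mice, and its part in the age differences was not tested. The plasmacytoid DC of mouse 5 (6 cells) held 36611 CPM of 5 neutrophil markers, which left 2750 CPM in the sum over all DC of that mouse, against 0, 124 and 0 CPM in mice 4, 6 and 7. The migratory cluster stood on weaker ground in mouse 4. Its 12 markers summed to 1349 CPM there, against 9793, 6205 and 6348 CPM in mice 5, 6 and 7, its median depth was 750 UMIs, and markers of MOL and of OL-like tumor cells summed to 307 and 521 CPM (at most 8.99 and 134 CPM in the other mice). Of its 33 cells, 18 had no UMI of these markers. Those 18 cells also had 0 UMIs of Ccr7, Fscn1, Cacnb3 and Ramp3, while the interferon-induced genes Cxcl9 and Isg15 reached 6565 and 5372 CPM and Cd40 709 CPM. The comparison of ages in the migratory DC is therefore also given for cells with at least 2 of the markers, 13, 9, 142 and 11 per mouse. In the 13 such cells of mouse 4, Cxcl9, Isg15 and Cd40 still reached 3724, 2437 and 493 CPM.

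Ccr7 (ENSMUSG00000037944, chr11:99144196-99155077, minus strand), the homing receptor, was at 291, 768, 2591 and 2545 CPM in the migratory DC of mice 4, 5, 6 and 7. The Cd209a DC held 0, 1.75, 113 and 95.4 CPM, so the migratory DC were above the Cd209a DC in each mouse. The plasmacytoid DC had 2 Ccr7 UMIs in all. Fscn1 (ENSMUSG00000029581, chr5:142960343-142973185, plus strand) encodes fascin, which bundles actin in the processes of mature DC. It was at 261, 1610, 1160 and 1232 CPM in the migratory DC and at 0, 1.75, 11.8 and 0 CPM in the Cd209a DC. For the 0 in mice 4 and 7, 3 UMIs would have been 20.4 and 23.9 CPM. Cacnb3 (ENSMUSG00000003352, chr15:98630840-98644529, plus strand), a beta subunit of voltage-gated calcium channels, was at 76.7, 339.7, 372 and 321 CPM in the migratory DC. In the Cd209a DC it had 3 UMIs in all, from mouse 6. Ramp3 (ENSMUSG00000041046, chr11:6658521-6677475, plus strand), which modifies the calcitonin receptor-like receptor so that it binds adrenomedullin, was at 15.3, 29.5, 451 and 482 CPM in the migratory DC. Both P43 values rest on 1 and 2 UMIs.

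Among the surface molecules that meet T cells, Cd83 (ENSMUSG00000015396, chr13:43784775-43803132, plus strand), which stabilises MHC class II and CD86 at the surface, was at 138, 517, 1115 and 696 CPM in the migratory DC. The Cd209a DC held 61.2, 64.7, 629.8 and 461 CPM, so the P70 Cd209a DC lay above the migratory DC of mouse 4 and, in mouse 6, above those of mouse 5. Cd40 (ENSMUSG00000017652, chr2:165055627-165072948, plus strand), the receptor for CD40 ligand of helper T cells, was at 567, 222, 366 and 188 CPM in the migratory DC and at 6.80, 19.2, 85.2 and 15.9 CPM in the Cd209a DC. Cd86 (ENSMUSG00000022901, chr16:36603869-36666081, minus strand), a ligand of CD28 and CTLA-4, was at 337, 59.1, 434 and 107 CPM in the migratory DC and at 129, 138, 331 and 342 CPM in the Cd209a DC. Cd86 was higher in the migratory DC in mice 4 and 6 and lower in mice 5 and 7.

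The intracellular members separated the subsets in the same order, except Ifitm1. Relb (ENSMUSG00000002983, chr7:19606217-19629438, minus strand), the NF-kB subunit of the noncanonical pathway, was at 322, 532, 786 and 696 CPM in the migratory DC and at 34.0, 57.7, 123 and 63.6 CPM in the Cd209a DC. Socs2 (ENSMUSG00000020027, chr10:95385362-95417180, minus strand), a feedback inhibitor of cytokine signalling, was at 61.3, 310, 371 and 241 CPM against 0, 3.50, 7.50 and 0 CPM. Ifitm1 (ENSMUSG00000025491, chr7:140967221-140969825, plus strand), a membrane protein of the interferon response, was at 230, 118, 425 and 268 CPM in the migratory DC. In the Cd209a DC it was at 13.6, 136, 1062 and 1328 CPM, higher than in the migratory DC in mice 5, 6 and 7. All told, 8 of the 10 genes were higher in the migratory than in the Cd209a DC of all 4 mice, with Ifitm1 and Cd86 as the exceptions. The background of the same rule was 8.88% of the 7837 genes that reached 10 CPM in a subset.

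**Figure D1:**
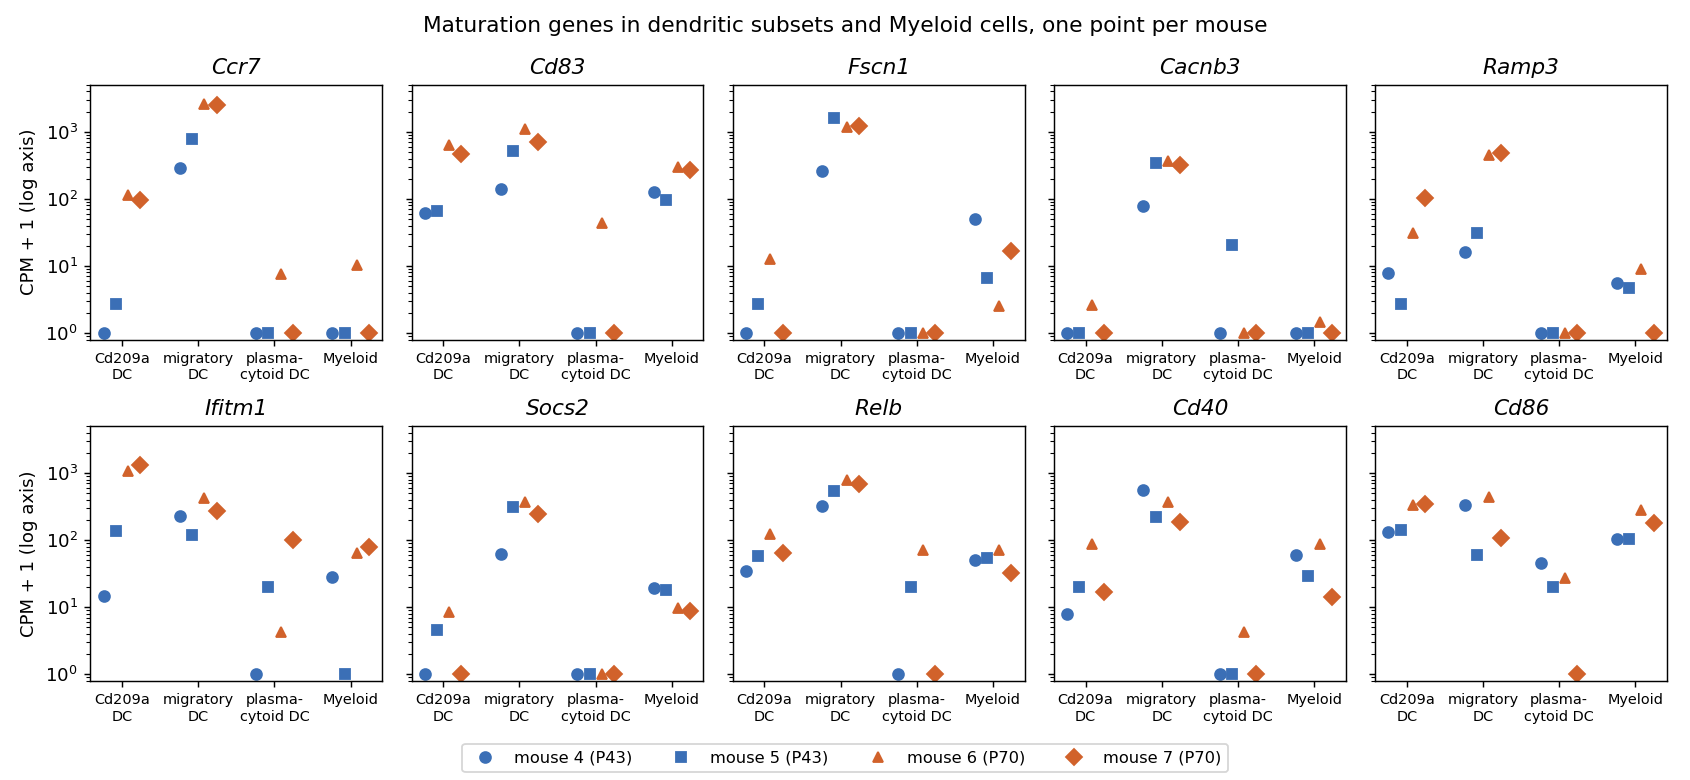
Level of each of the 10 genes (CPM + 1, log axis) in the 3 DC subsets and in Myeloid cells, with 1 point per mouse, P43 in blue and P70 in orange. Ccr7 of the migratory DC runs from 291 CPM in mouse 4 to 2591 CPM in mouse 6, and both P70 points lie above both P43 points for Ccr7 and Cd83 in the Cd209a and migratory DC.

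The other genes of maturation were read from lists. Of 7 genes of migration and cytoskeleton, 6 were higher in the migratory than in the Cd209a DC of all 4 mice, among them Samsn1 (123, 679, 1080 and 1286 CPM against 27.2, 49.0, 121 and 127 CPM) and the RabGAP gene Tbc1d4 (199, 783, 1387 and 1875 CPM against 34.0, 75.2, 133 and 167 CPM). Samsn1, Tbc1d4, Anxa3, Ccl22, Il15ra and Il4i1 are also among the markers that named the migratory cluster. Of 10 chemokines and cytokines, 6 were higher. Of 13 NF-kB pathway genes, 5 were higher, namely Nfkb2, Nfkbia, Map3k14, Traf1 and Birc2. Of 10 genes of costimulation and checkpoints, Tnfrsf4 and Cd274 were higher, and of 6 feedback genes only Il4i1 was. Lower in the migratory DC of all 4 mice were 8 of 10 genes of the immature state and antigen processing, including Cd209a, Mrc1 and Ccr2, against 18.8% of all 7837 genes. Cd209a and Clec10a of this list were among the markers that named the Cd209a DC, so the difference of these genes follows from the naming. None of these lists gave a gene in the opposite direction.

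Outside the DC, the 10 genes had different carriers. Classes are compared here over mice with at least 20 cells of the class, which leaves mice 4 and 6 for the migratory DC and for B cells. Ccr7 had a mean of 1441 CPM in the migratory DC (291 to 2591), and its range did not meet that of B cells, the next class, at 108 CPM (31.4 to 185). Cacnb3 (mean 225 CPM), Relb (554 CPM) and Cd40 (467 CPM) also did not overlap with the class next in order. B cells, Cd209a DC and T and NK cells could not be told apart in Ccr7 by their ranges. Cd83 decreased from migratory DC (626 CPM) over Cd209a DC (304 CPM) and Myeloid cells (196 CPM) to B cells (154 CPM) with overlapping ranges at each step, and lay clear of the endothelial cells below them (19.5 CPM). Cd86 had the same 4 classes at its head, with 386, 235, 220 and 165 CPM in migratory DC, Cd209a DC, B cells and Myeloid cells, and T and NK cells stood apart at 20.3 CPM.

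Fscn1 was not confined to the DC. Its mean of 710 CPM in the migratory DC (261 to 1160) overlapped with mature oligodendrocytes (MOL) at 501 CPM (256 to 846), and NB-like and OL-like tumor cells held 241 and 194 CPM. Ifitm1 was highest in mural cells, at 1135, 1035, 1543 and 974 CPM in mice 4, 5, 6 and 7. The range of the Cd209a DC overlapped with theirs. Socs2 was second in endothelial cells with 84.0, 103, 98.0 and 53.6 CPM, and Ramp3 in T and NK cells with 11.3, 35.6, 50.6 and 196 CPM. Across 40 sums of a class or subset in a mouse, the correlation of each gene with the mean of the other 9 was highest for Ccr7 (Pearson r = 0.87) and Relb (r = 0.80), and Fscn1 had r = -0.10. These sums share libraries, so no p is given.

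**Figure D2:**
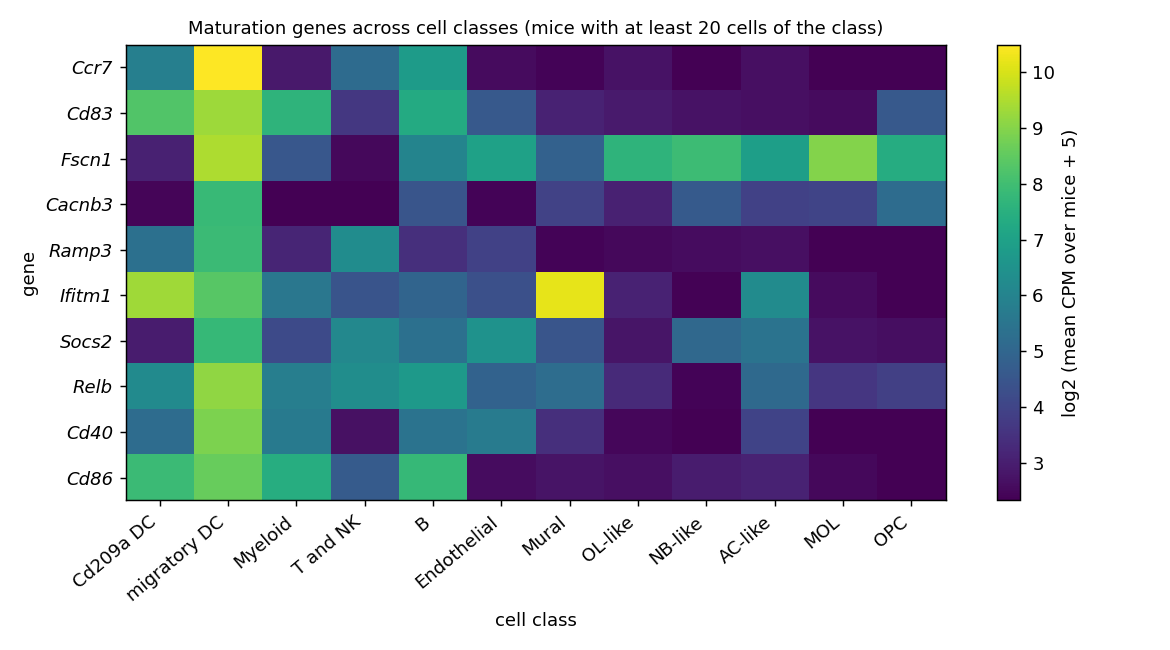
Mean level of the 10 genes (rows) in 12 cell classes (columns) as log2 (CPM + 5), over the mice with at least 20 cells of the class. The migratory DC column is the highest in each row except that of Ifitm1, while Fscn1 is also high in MOL (501 CPM), Ifitm1 in mural cells (1172 CPM) and Cd83 and Cd86 in Myeloid cells (196 and 165 CPM).

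The genes whose profile over these 40 sums was most like the mean of the 10 were taken from 10176 searched. Il4i1, an amino acid oxidase, came first (r = 0.92), before Zmynd15 (r = 0.87), Timd4 (r = 0.86) and Ccl22 (r = 0.86). AA467197, Cacna1s, Etv3, Tm4sf5, Gpr157 and Ass1 followed with r between 0.81 and 0.84. Il4i1, Zmynd15 and Ccl22 had been markers of the migratory cluster.

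Whether the older tumors held DC in a different state was asked first within the Cd209a DC, the one subset with at least 20 cells in every mouse. Ccr7 had 0 UMIs of 147147 in mouse 4 and 1 of 571548 in mouse 5, against 210 of 1865756 in mouse 6 and 12 of 125741 in mouse 7. Summed over the mice of an age, the ratio of P70 to P43 was 80.1 (exact 95% interval 14.2 to 3178, counting error only). Cd83 had 61.2 and 64.7 CPM at P43 and 629.8 and 461 CPM at P70. Ifitm1 at P70 was 1062 and 1328 CPM against 13.6 and 136 CPM, and Cd86 331 and 342 CPM against 129 and 138 CPM. Ramp3 rested on 2 UMIs at P43 and 69 at P70, a ratio of 12.5 (3.32 to 105). Relb was just apart, as mouse 5 reached 57.7 CPM and mouse 7 lay at 63.6 CPM. These 6 of the 10 genes were higher in both P70 mice than in both P43 mice, and so were 19.5% of all 7863 genes. Cd40 overlapped between the ages, with mouse 7 (15.9 CPM) below mouse 5 (19.2 CPM), and Fscn1, Cacnb3 and Socs2 were near 0 at both ages.

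In an edgeR quasi-likelihood fit on the summed counts of the Cd209a DC, 216 of 4628 genes had an adjusted p under 0.05, of which 129 (2.79%) were higher and 87 (1.88%) lower at P70. Of the 10 members, 6 passed the filter on low counts, Ccr7 and Ramp3 only through their counts at P70. Ifitm1 met the limit of this filter at P43 in mouse 5 alone, so it too needed its counts at P70. Ccr7, Cd83, Ramp3, Ifitm1 and Cd86 were called higher and Relb was not, which describes genes that had been chosen with the ages in view. The fitted log2 difference was 3.12 ± 0.30 (SE, n = 2 against 2 mice) for Cd83, 3.61 ± 0.41 for Ifitm1, 1.30 ± 0.27 for Cd86 and 1.04 ± 0.40 for Relb. Without mouse 5, Ifitm1 differed by 6.43 and Relb by 1.61. The call of Ramp3 was lost with any 1 of the 4 mice left out, and that of Cd86 without mouse 4, 5 or 6. Without mouse 6, Ccr7 did not pass the filter and only Cd83 and Ifitm1 remained called, among 59 genes in all. DESeq2 called 57 genes and 3 members, and gave Ifitm1 an adjusted p of 0.115. The 6 differences of this paragraph and the last kept their sign in each alternative that gave a value.

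Other genes of the Cd209a DC moved with age in the same fit. Of the 8 tested chemokines and cytokines, 5 rose. Il12b, a subunit of interleukin 12, had 0 UMIs at P43 and 126 at P70, at least 15.2-fold higher when set against 3 counts over both P43 mice. Ccl5, which attracts T cells, rose from 0 and 131 CPM to 592 and 644 CPM (edgeR adjusted p = 0.00239), and Cxcl16 from 54.4 and 149 CPM to 429 and 326 CPM (adjusted p = 0.0059). Cxcl9 and Cxcl10, which attract T cells by CXCR3, rose in the fit, but their level was high in mouse 6 alone (339 and 496 CPM), and mouse 7 (31.8 and 7.95 CPM) overlapped with P43. Ccl17 fell in the fit and was high in mouse 5 alone (450 CPM). The NF-kB genes Rel (log2 difference 1.20 ± 0.26, adjusted p = 0.0117) and Map3k14, the kinase of the noncanonical pathway (1.97 ± 0.47, adjusted p = 0.0194), rose, 2 of 11 tested. Cd80 rose as 1 of 3 tested genes of costimulation and checkpoints (edgeR adjusted p = 0.048), and Samsn1 as 1 of 6 of migration. Cd80, with 1 and 7 UMIs at P43, and Il12b passed the filter on low counts only through P70. These 2 genes could therefore hardly be called lower. At P43, Ccl5, Cxcl10, Map3k14 and Samsn1 met the limit of the filter in mouse 5 alone, and Cxcl9 in mouse 4 alone. These genes too needed their counts at P70 to pass. Of the 5 chemokines and cytokines that rose, only Cxcl16 did not need them. None of 2 tested feedback genes was called by edgeR.

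The Cd209a DC of the 2 ages also differed in their identity genes. Cd209a itself was at 958 and 724 CPM at P43 and at 115 and 278 CPM at P70 (edgeR adjusted p = 0.000496). The mannose receptor gene Mrc1 fell (177 and 145 against 15.5 and 23.9 CPM, adjusted p = 0.000143) and so did Ccr2 (483 and 546 against 243 and 175 CPM, adjusted p = 0.00772), which made 3 of 10 genes of the immature state. Mrc1 passed the filter on low counts only through P43, so it could hardly be called higher. A change in each cell and a change in which cells make up the cluster cannot be told apart by these sums. Where cells with up to 60000 UMIs were kept, type 1 DC formed their own cluster of 13, 18, 56 and 13 cells. In it Cd83 was at 28.8, 38.2, 757 and 260.0 CPM and Ifitm1 at 0, 38.2, 334 and 420.0 CPM. These 2, Fscn1, Ramp3 and Relb, 5 of the 10 members, were higher there in both P70 mice. Ccr7 was found there in mouse 6 alone (40.03 CPM). Cd86 overlapped between the ages, with mouse 7 (199.992 CPM) below mouse 5 (200.629 CPM). In the remaining Cd209a cluster the same 6 members were higher in both P70 mice as before. Socs2 was lower there (14.1 and 16.7 against 9.37 and 0 CPM). The share of all genes was not computed for these clusters, so both counts have no background. The sum of 5 interferon-induced genes was 455, 458, 2711 and 501 CPM in the Cd209a DC, high in mouse 6 alone, and the sum of 8 immediate early genes 6341, 6507, 4049 and 6696 CPM. Their part in the differences was not tested. The reporter, which DC should lack, was found in 4, 7, 26 and 12 of the Cd209a DC, which is most frequent in mouse 7.

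In the migratory DC, with 9 cells in mouse 5 and 14 in mouse 7, values were compared without a test. Both P70 mice were above both P43 mice in 5 of the 10 genes (Ccr7, Cd83, Ramp3, Ifitm1 and Relb), none was below, and 18.8% of 7536 genes were above. Fscn1 was highest in mouse 5, at P43. Among cells with at least 2 markers the count was 7 genes, with Cacnb3 and Socs2 added. The share of all genes was not computed for these cells, so this count has no background. Socs2 was barely apart, as its P43 maximum was 310 CPM (mouse 5) and its P70 minimum 323 CPM (mouse 7, 9 UMIs). The Cacnb3 value of mouse 7 rested on 12 UMIs. Ifitm1 in these cells was at 54.8, 118, 367 and 179 CPM, as 13 of its 15 UMIs in mouse 4 came from the cells without a marker. Fscn1 was at 356, 1610, 1288 and 1651 CPM, highest in mouse 7, and Ccr7 was at 438, 768, 2861 and 3409 CPM in mice 4, 5, 6 and 7. Ramp3 in these cells was at 27.4 and 29.5 CPM at P43 and at 498 and 610.0 CPM at P70. The cytokine gene Il12b, at 0, 44.3, 1050 and 1152 CPM in all migratory DC, followed the same order, as did Ccl5 with 1641, 1270, 15524 and 10849 CPM. Ccl22 did not, with 4608 CPM in mouse 5 and 107 to 402 CPM in the others.

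The migratory DC made up 47.1% of the DC in mouse 4 (95% exact binomial interval 35.1 to 59.4%), 12.2% in mouse 5 (5.71 to 21.8%), 33.1% in mouse 6 (28.9 to 37.5%) and 21.2% in mouse 7 (12.1 to 33.0%). Both P70 shares lay between the P43 shares. The mean difference was -2.52 percentage points (exact two-sided permutation test over mice, p = 1, where the smallest possible p is 0.333). With migratory cells that had at least 2 markers, it was 7.73 points. It was 15.0 points without mouse 4 and 3.40 points without mouse 7, and stayed negative without mouse 5 or mouse 6. Its sign therefore depended on single mice of both ages. The Cd209a DC made up 47.1%, 79.7%, 54.9% and 72.7% (difference 0.37 points, p = 1) and the plasmacytoid DC 5.71%, 8.11%, 12.1% and 6.06% (2.15 points, p = 0.667, same exact test).

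**Figure D3:**
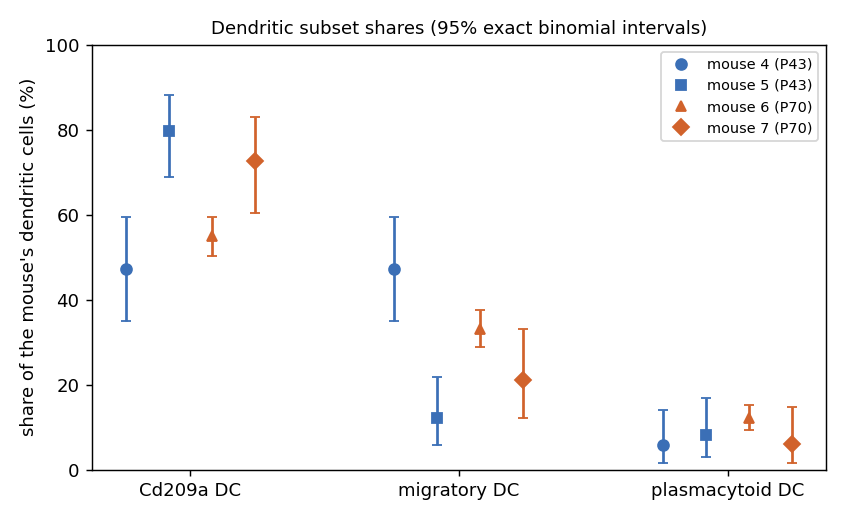
Share of each subset among the DC of a mouse in percent, with 95% exact binomial intervals that cover counting error only. The migratory share of mouse 6 (33.1%) and mouse 7 (21.2%) falls between those of mouse 4 (47.1%) and mouse 5 (12.2%).

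Pooled over all DC, 9 of the 10 genes were higher in both P70 mice, Cd40 being the exception, and 19.1% of 7934 genes were. With the 3 subsets weighted equally in every mouse, 5 genes were, and the share of all genes was not computed for this rule. Equal weights give the plasmacytoid DC (4, 6, 58 and 4 cells in mice 4, 5, 6 and 7) as much part as the larger subsets. Those of mouse 5 held 36611 CPM of neutrophil markers. The median of the 10 differences in log2 (CPM + 5) was 1.44 pooled, 0.98 at equal weights, 1.33 within the Cd209a DC and 1.04 within the migratory DC, and over all genes it was -0.06, -0.07 and 0.05 in all DC, Cd209a DC and migratory DC. Without mouse 5, the median at equal weights was 2.10. Ccr7 differed by 3.04 pooled and 2.46 at equal weights, and Ramp3 by 3.85 and 3.72. For Fscn1 the pooled difference of 1.38 became 0.86, and Cd40 went from 0.16 to -0.28. The edgeR fit over all DC called 71 of 5503 genes, 44 (0.8%) of them higher, and 4 members were among these. They were Ccr7 (log2 difference 3.14 ± 0.27), Cd83 (2.69 ± 0.30), Ramp3 (4.76 ± 0.46) and Ifitm1 (3.13 ± 0.33), genes that had been chosen with the ages in view. Ramp3 had 2 and 3 UMIs at P43 and passed the filter on low counts only through P70, so it could hardly be called lower. The 4 members kept their call in each alternative with all 4 mice, DESeq2 included, and their sign with each mouse left out. These alternatives reuse the same mice and the same chosen genes, so they are no further test of age. Cd40 (0.44 ± 0.60) turned negative without mouse 5 or without mouse 6.

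**Figure D4:**
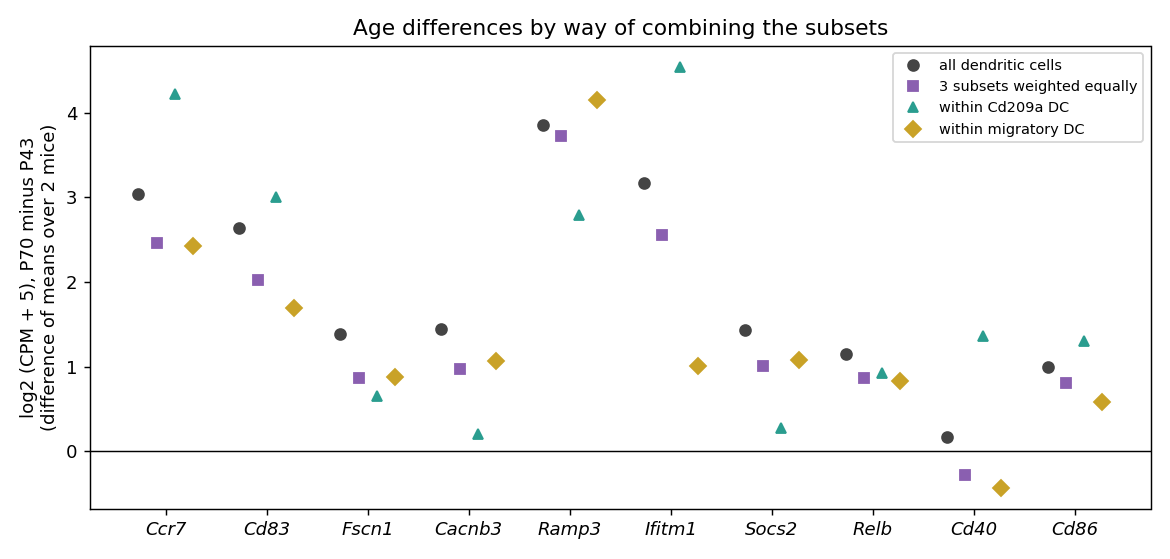
Difference between P70 and P43 in log2 (CPM + 5) for each gene, pooled over all DC, with the 3 subsets weighted equally, within Cd209a DC and within migratory DC, each as a difference of means over 2 mice per age. Ifitm1 and Ccr7 differ most within the Cd209a DC, Ramp3 most within the migratory DC (4.15), and Cd40 lies below 0 in the migratory DC (-0.43) and at equal weights (-0.28).

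Counted cell by cell at an equal depth of 2000 UMIs, the Cd209a DC held 0.526, 0.722, 1.97 and 1.97 of the 10 genes per cell in mice 4, 5, 6 and 7 (19, 54, 262 and 35 cells, with 14, 5, 2 and 13 shallower cells left out). Without thinning, the values were 0.848, 1.64, 3.32 and 2.02. At least 3 of the genes were found in 0, 2, 81 and 10 cells, or 0%, 3.70%, 30.9% and 28.6%, where 0 of 19 cells allows up to 15.8% by 3 counts. The genes found most often at P70 were Cd83, Ifitm1 and Cd86. Ifitm1 was found in 10.5%, 16.7%, 44.3% and 45.7% and Cd86 in 26.3%, 18.5%, 43.5% and 45.7% of these cells. Fscn1, Cacnb3 and Socs2 were found in at most 1.91%. Cd83 was found in 5.26%, 12.96%, 53.4% and 65.7% of the thinned Cd209a DC, while 8.0%, 5.04%, 1.36% and 0% of endothelial cells had it (0 of 10 cells in mouse 7, which allows up to 30%). Of the thinned Myeloid cells, 19.4%, 20.6%, 37.1% and 32.6% had Cd83. The Myeloid cells held 0.611, 0.571, 1.19 and 0.809 of the 10 genes per cell, so both values were higher in both P70 mice there too. Ccr7 was found in 0%, 0%, 10.3% and 11.4%, where 0 of 19 and 0 of 54 cells allow up to 15.8% and 5.56% by 3 counts (exact 95% upper limits 17.6% and 6.60%), against at most 0.68% of endothelial cells. Without thinning, the shares with a Ccr7 UMI were 0%, 1.69%, 15.2% and 10.4%, and a cell without one may still express the gene. The migratory DC held 4.13, 5.08 and 4.56 genes per cell in mice 5, 6 and 7 (8, 140 and 9 cells), and mouse 4 left 4 cells with 1.5. The plasmacytoid DC held 0 to 0.25. In the Cd209a DC of mouse 6, cells with a Ccr7 UMI held 2.52 of the other 9 genes (27 cells) and those without held 1.79 (235 cells). In the migratory DC of mouse 6 these values were 4.74 (107 cells) and 2.94 (33 cells).

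**Figure D5:**
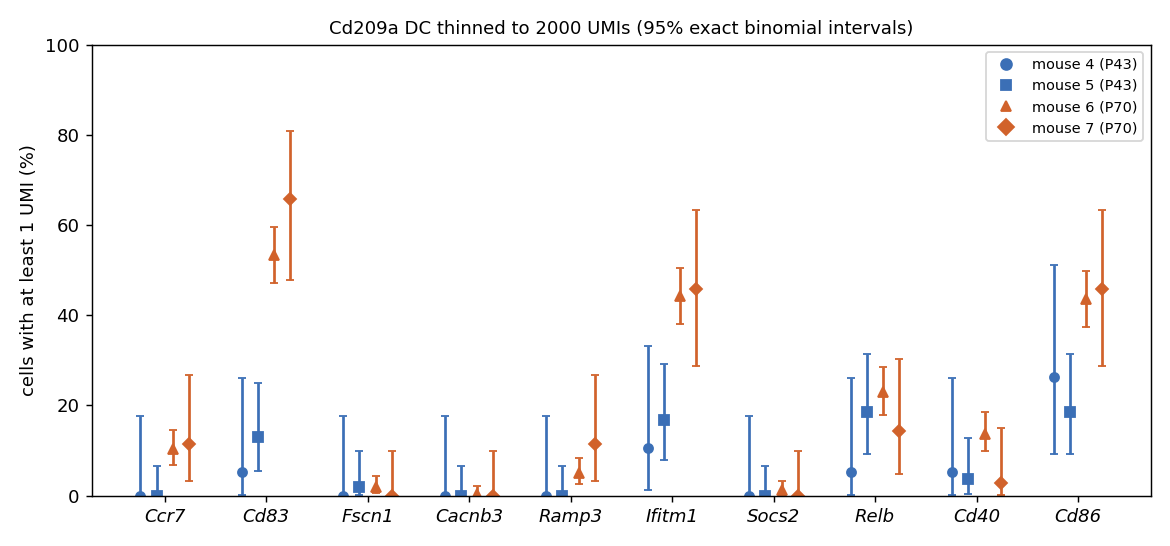
Share of Cd209a DC with at least 1 UMI of each gene in percent, after thinning each cell to 2000 UMIs, by mouse, with 95% exact binomial intervals. Cd83 reaches 53.4% and 65.7% at P70 against 5.26% and 12.96% at P43, while the intervals of Fscn1, Cacnb3 and Socs2 start at or near 0 in all 4 mice.

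The Myeloid cells of the same mice (56, 66, 819 and 145 cells), which include microglia and macrophages, were set beside the DC. At resolution 1, the clusters named Myeloid were a larger one of 900 cells, led by genes such as Cebpb, Ly6c2 and Lyz2, and a smaller one of 175 cells, led by C1qc, C1qa and Apoe. Cd83 was at 126, 96.1, 298 and 265 CPM and Cd86 at 104, 102, 277 and 176 CPM in mice 4, 5, 6 and 7, so both were higher in both P70 mice there too. Of 5 members that passed the filter, edgeR called 0 at an adjusted p under 0.05, against 0.357% of 5610 genes called higher. An unadjusted p under 0.05 was found for 3 members (Cd83, Ifitm1 and Cd86) and, in either direction, for 703 of the 5610 genes. Ifitm1 was at 27.1 and 0 CPM at P43, so it needed its counts at P70 to pass the filter. DESeq2 called 1 member, Cd83, among 100 genes, and edgeR with no filter called 382 genes in all. The count of 0 depended on single mice and on the filter, with 2 members called without mouse 6, 4 without mouse 7 and 3 with no filter. All calls in Myeloid cells went from 47 to 3 without mouse 4, 153 without mouse 5, 383 without mouse 6 and 538 without mouse 7. The log2 difference of Cd83 was 1.44 ± 0.30 in Myeloid cells. Whether it differed from that in the Cd209a DC was not tested. The identity genes that differed in the Cd209a DC were lower at P70 in Myeloid cells as well. Mrc1 fell from 374 and 350.5 CPM to 11.1 and 25.9 CPM (edgeR adjusted p = 0.00929) and Cd209a from 72.2 and 84.8 CPM to 8.30 and 0 CPM (adjusted p = 0.0497), while Ccr2 was at 952 and 1170.1 CPM against 432 and 374 CPM (adjusted p = 0.0592). Mrc1 and Cd209a passed the filter in Myeloid cells only through P43, so they could hardly be called higher there. As in the Cd209a DC, a change in each cell and a change in which cells make up the class cannot be told apart by these sums. Ccr7 had 0 CPM in the Myeloid cells of mice 4, 5 and 7 and 9.18 CPM in mouse 6. Several listed genes that rose in the Cd209a DC were higher in both P70 mice in Myeloid cells too. They were Ccl5 (632, 168, 2357 and 1437 CPM), Cxcl16 (311, 341, 945 and 506 CPM), Rel (284, 241, 442 and 345 CPM), Map3k14 and Cd80. Samsn1 was lower in both P70 mice (262, 138, 90.7 and 59.7 CPM), and Cxcl9 and Cxcl10 overlapped between the ages. None of these was called by edgeR in Myeloid cells.

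Partners of the members were sought in all classes. Of the ligands of CCR7, Ccl21a was found with 4, 2, 8 and 0 UMIs in endothelial cells of mice 4, 5, 6 and 7 and with none in any other class, and Ccl19 reached 14.5, 11.2, 65.6 and 13.4 CPM in endothelial cells. Mural cells held 17.4, 4.17, 31.7 and 0 CPM of Ccl19, and AC-like cells 99.4, 19.4, 7.89 and 0 CPM, which rest on 5, 2, 4 and 0 UMIs. Cd40lg was found in T and NK cells at 22.6, 31.4, 5.62 and 0 CPM. Cd28 and Ctla4, the receptors of CD86, were at 124, 50.3, 214 and 432 CPM and at 28.2, 71.2, 419 and 157 CPM in T and NK cells. Calcrl, the receptor that RAMP3 joins, lay at 98.6, 66.3, 116 and 66.9 CPM in endothelial cells. In the migratory DC, where Ramp3 was highest, Calcrl was at 0 in mice 4, 5 and 7 and near 0 in mouse 6. The migratory DC of mice 4, 5 and 7 held only 65216, 67702 and 37332 UMIs of all genes, so a low level could be missed there.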

How the data were processed

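Cells of 4 tumors were profiled with the Chromium Single Cell 3′ v3.1 chemistry, and the authors processed the reads with Cell Ranger 6.0.2 on an mm10 reference with the transgenes added. The deposited values are raw UMI counts per gene and cell in filtered matrices. Cells with at least 200 genes, under 25% mitochondrial counts and at most 40000 UMIs were kept. Doublets were limited by the UMI ceiling only, and no doublet caller was run. Seurat 5.3.0 integrated the libraries (2000 variable genes without the 10 members, 30 components), and classes came from clusters at resolution 0.5. DC subsets came from resolution 1 because Cd209a and plasmacytoid DC shared a cluster at 0.5, a choice made after the clusters had been seen. Clusters were named from 16 marker lists if at least 3 markers were raised 2-fold, by the list with the most markers among the 10 leading genes (2 for Cd209a DC, OPC and AC-like clusters), and clusters with a reporter over 500 CPM were tumor (OL-like where no marker led but at least 3 were raised). UMIs were summed per mouse and cell set. edgeR 4.0.16 (quasi-likelihood, Benjamini-Hochberg) tested P70 against P43 where every mouse had at least 20 cells, with DESeq2 1.42.0 as the alternative. On simulated data 97.5% (all DC), 99.5% (Cd209a DC) and 94.5% (Myeloid) of genes changed 4-fold were recovered. Those counts were drawn with the dispersion fitted to these same data, so high recovery follows from the setting and does not measure power in these mice. The text names the 10 members, genes of 7 lists and the 10 genes most like the members. Members and lists were chosen with earlier results of these data known, and the Myeloid fit was added after the values were seen. Shares carry exact binomial intervals, and intervals cover counting error only. Mice are the replicates, and 1 library per mouse was made. Promoter sequences are from RefSeq and 4 of 10 members matched.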

Additional observations from a re-analysis of the deposited data

How the results depend on the processing

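The number of genes that differed with age in all DC (71) became 355 with no filter on genes, 196 without integration and 104 to 333 with 1 mouse left out, and the members called higher (4) became 9, 7 and 4 to 9. In the Cd209a DC, 216 genes became 57 with DESeq2, 368 with no filter, 136 with the members kept in the clustering (added after the data had been seen) and 44 to 307 with 1 mouse left out, and the members called higher (5) became 3 with DESeq2 and 2 to 5 with 1 mouse left out. The difference in migratory share (-2.52 points) was 0.0099 points with a limit of 60000 UMIs, 7.73 points with cells of at least 2 markers, and -20.0 to 15.0 points with 1 mouse left out. The log2 difference of Cd40 in all DC (0.44) was -0.45 without mouse 5 and -0.70 without mouse 6, the lowest of a range to 1.59 with 1 mouse left out. In Myeloid cells that range was -0.65 to 0.52 for Relb and -1.50 to 1.22 for Cd40, negative without mouse 6. The members per DC and per Cd209a DC, and the median difference at equal subset weights (0.88 to 2.10 with 1 mouse left out), kept their direction under every alternative run. The age differences of Ccr7, Cd83, Ramp3 and Ifitm1 in all DC kept their sign in 13 of 13 alternatives each. The alternatives reuse the same 4 mice, and these genes were chosen with the ages in view, so this is no further test of age. The cause of these changes was not tested. A minimum of 10 cells per mouse added no subset, because mouse 5 had 9 migratory DC. With 2 mice per age, no permutation over mice can give a p under 0.333, and the small sums of mice 4 and 7 limit what can be seen of Fscn1, Cacnb3 and Socs2 in the Cd209a DC. No paired analysis was possible because the libraries of P43 and P70 came from different mice.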
